A study of Homo sapiens with 2 samples.

Results

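The histone cluster genes are the 71 genes of the count matrix, of 33694 in all, whose symbols open with HIST1H, HIST2H, HIST3H or HIST4H. They were read in 1 pool of HMLER-derived C1 cells, and HMLER are human mammary epithelial cells immortalised with telomerase and SV40 early-region genes and transformed with an oncogenic RAS. The pool held gene-edited C1-sgEED cells, gene-edited C1-sgKMT2D cells and C1-sgControl cells, each marked with an antibody hashtag, with no drug or time course. EED is a core subunit of Polycomb repressive complex 2, and KMT2D is a histone H3 lysine methyltransferase that acts at enhancers. Each line is 1 sample in 1 gene expression library, so intervals here are exact 95% intervals that cover counting error only, and no difference between lines has a replicate check. After filtering, 2338 C1-sgEED cells held 10256770 unique molecular identifiers (UMIs), 2348 C1-sgKMT2D cells held 13957344 and 1720 C1-sgControl cells held 9927122. The median was 3915 UMIs per cell in C1-sgEED, 5526 in C1-sgKMT2D and 5672.5 in C1-sgControl.

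The levels of the edited genes themselves gave no check of the labels. A 3′ tag counts a transcript whether or not its coding part was edited, and the reason for the similar levels was not tested. EED was at 13.4 CPM (a gene's UMIs scaled to the same total of gene UMIs in each line, the usual CPM) in C1-sgEED, 15.3 CPM in C1-sgKMT2D and 13.6 CPM in C1-sgControl. KMT2D was at 3.02, 5.02 and 4.63 CPM in the same order of lines, and all of these intervals overlap with the control's. The epithelial marker list summed to 15471 CPM in C1-sgEED, 18114 CPM in C1-sgKMT2D and 26632 CPM in C1-sgControl, so the labelled epithelial origin was seen in every line. The 10 immune markers summed to 16.6, 16.5 and 21.2 CPM, with 6, 7 and 5 of the 10 at 0, and the 8 endothelial markers to 1.07, 0.788 and 0.302 CPM. The 8 neural markers summed to 24.9, 37.5 and 33.4 CPM, with 3 of the 8 at 0 in each line. The part of these markers in the results was not tested.

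Replication-dependent histone genes sit in clusters and supply the core histones H2A, H2B, H3 and H4 and the linker histone H1 that package newly made DNA in S phase. Their messages are intronless and normally end in a conserved stem-loop bound by SLBP instead of a poly(A) tail. A library primed with oligo-dT therefore reads a histone message only where it carries a poly(A) tail or an internal run rich in A. For that reason the levels below are UMIs captured, and the levels of different histone genes are not their relative abundance.

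The 3′ ends of the annotated messages (GENCODE v29) differ among the members, and those shown here belong to the member with the most captured UMIs and to members discussed below. The HIST1H4C model of GENCODE ends in an A-rich stretch with 13 A in 15 bases, shown with that window in capitals. HIST1H2BH, HIST1H2AC and HIST3H2A hold the histone stem-loop, in capitals, followed by 1640, 1114 and 390 more annotated bases. HIST1H2BH and HIST1H2AC also hold a polyadenylation signal, AATAAA in capitals, near the far end.
HIST1H4C A-rich window: acttcAAAAAACAAAAACAAaaaaa
HIST1H2BH stem-loop: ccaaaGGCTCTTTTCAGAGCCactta
HIST1H2BH polyadenylation signal: aaataattttttAATAAAaggtttttttaa
HIST1H2AC stem-loop: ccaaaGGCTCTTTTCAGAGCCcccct
HIST1H2AC polyadenylation signal: ctggcatgaggtAATAAAaggtaatgc
HIST3H2A stem-loop: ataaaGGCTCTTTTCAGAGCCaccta
HIST1H1A A-rich window: cctccAAGAATCCAAAAAAAcccaa
Of the 71 members, 31 have a stem-loop in an annotated model, 22 have a model that runs on for at least 100 bases past it and 17 hold AATAAA past it. Of the 10 members at 10 CPM or more in a line, 3 have a stem-loop in a model and 2 hold AATAAA past it. Some models, such as HIST1H1C at 642 bases and HIST1H3B at 411 bases, hold no sequence past the coding part. Where a model stops there, a missing stem-loop describes the model and not the message. The median of the highest A count in 15 bases was 10.5 in those 10 members and 8 in the other 61. Across the 71 members the highest CPM and the A count had a Spearman rho of 0.50, and the highest CPM and transcript length 0.35. These values describe genes that share sequence, on models that are not equally complete.

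The promoters of 3 members are shown because their levels behaved differently: HIST1H2BH stood apart in C1-sgKMT2D, HIST1H1D was much higher in cycling cells, and HIST1H2AC varied little with cycling. The sequences are the 250 bases before and 50 after a start site in RefSeq (GRCh38.p14). Capitals mark matches on either strand to the octamer ATTTGCAT, to the CCAAT box, to the TATA box, spelled TATAAA, and to the H1 box, spelled AAACACA.
HIST1H2BH, chr6:26251364-26251663, plus strand: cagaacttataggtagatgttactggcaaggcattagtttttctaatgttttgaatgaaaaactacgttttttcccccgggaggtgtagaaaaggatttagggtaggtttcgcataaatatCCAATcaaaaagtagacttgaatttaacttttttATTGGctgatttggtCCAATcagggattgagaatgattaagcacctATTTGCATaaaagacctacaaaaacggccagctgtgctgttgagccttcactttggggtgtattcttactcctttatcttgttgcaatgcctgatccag
HIST1H1D, chr6:26234938-26235237, minus strand: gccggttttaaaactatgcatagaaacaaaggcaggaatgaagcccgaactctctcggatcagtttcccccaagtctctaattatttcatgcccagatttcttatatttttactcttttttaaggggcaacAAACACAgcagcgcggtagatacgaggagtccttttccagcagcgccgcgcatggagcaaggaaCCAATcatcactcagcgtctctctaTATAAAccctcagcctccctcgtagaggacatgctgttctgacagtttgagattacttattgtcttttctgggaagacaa
HIST1H2AC, chr6:26123922-26124221, plus strand: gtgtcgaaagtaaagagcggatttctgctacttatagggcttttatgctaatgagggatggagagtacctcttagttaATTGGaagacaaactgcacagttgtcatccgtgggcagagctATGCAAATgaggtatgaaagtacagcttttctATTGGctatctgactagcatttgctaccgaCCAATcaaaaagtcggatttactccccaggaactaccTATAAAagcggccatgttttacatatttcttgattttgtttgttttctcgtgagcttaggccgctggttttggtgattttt
The HIST1H2BH promoter holds the octamer at position -49 and CCAAT at -129, -95 and -80 from the start site, but not TATAAA. The octamer, known as a target of the factor POU2F1 in H2B genes, occurred in 21 of the 61 members with a RefSeq promoter (34.4%) and in 1.80% of all 27305 promoters of the same length. By class it was present in 11 of 16 H2A and 9 of 13 H2B promoters, and in 1 of 13 H3, 0 of 13 H4 and 0 of 6 H1 promoters. The 1 H3 window, that of HIST1H3D, is the same stretch as the window of HIST1H2AD. Windows of neighbouring genes on opposite strands can overlap, and HIST2H2AC and HIST2H2BE share 1 octamer. The same holds for HIST1H2AA with HIST1H2BA, HIST1H2AG with HIST1H2BJ, HIST1H2AJ with HIST1H2BM, and HIST1H2AM with HIST1H2BO. The counts of member promoters are therefore not all of separate sites. CCAAT occurred in 51 of 61 member promoters (83.6%, against 35.7% of all promoters) and TATAAA in 41 (67.2%, against 12.0%). The H1 box occurred in 9 (14.8%, against 5.76%), among them all 6 H1 promoters. A match is a description of letters, and the 10 members with no matched promoter are not described.

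Of the 71 members, 62 had a UMI in at least 1 of the 3 lines and 10 reached 10 CPM in a line. A further 18 peaked between 2 and 10 CPM, 34 peaked below 2 CPM, and 9 had no UMI in any line. For those 9, the exact interval of a count of 0 reaches up to 0.360 CPM in C1-sgEED, 0.264 CPM in C1-sgKMT2D and 0.372 CPM in C1-sgControl. The 9 were 1 of 6 H1, 1 of 18 H2B, 5 of 15 H3, 2 of 15 H4 and 0 of 17 H2A genes, and the H1 gene is HIST1H1T, the testis-specific linker histone. The 10 members at 10 CPM or more were 5 H1, 3 H2A, 1 H2B and 1 H4 gene, and no H3 gene. The member just below the bound was HIST1H2AH, at 8.19 CPM in C1-sgEED. Members with near-identical copies, such as HIST2H2AA3 and HIST2H2AA4 or HIST2H4A and HIST2H4B, are uncertain as single genes, as the counting could split their reads.

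HIST1H4C, one of the genes for histone H4 (chr6:26103876-26104310, plus strand), held the most UMIs of any member. It was at 393 CPM in C1-sgEED (381 to 406), 349 CPM in C1-sgKMT2D (339 to 359) and 245 CPM in C1-sgControl (236 to 255). HIST1H4C was thus highest in C1-sgEED and lowest in C1-sgControl, with no overlap of the intervals, at ratios to control of 1.60 (1.52 to 1.69) and 1.42 (1.35 to 1.49). The other 70 members together came to 315 CPM in C1-sgEED, 288 CPM in C1-sgKMT2D and 213 CPM in C1-sgControl. HIST1H4C was carried by few cells: cells with 5 or more of its UMIs made up 12.6% of C1-sgEED, 12.1% of C1-sgKMT2D and 9.59% of C1-sgControl cells and held 75.3%, 73.2% and 74.0% of its UMIs. The most in 1 cell was 27 UMIs in C1-sgEED, 44 in C1-sgKMT2D and 30 in C1-sgControl. After thinning each cell to 2000 UMIs, 28.4% of C1-sgEED cells, 29.3% of C1-sgKMT2D cells and 19.9% of C1-sgControl cells held a HIST1H4C UMI, against 39.3%, 49.4% and 35.3% unthinned. No cell type in the pool is known to lack histone messages, so no share of cells from free RNA could be set beside these.

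Of the 6 linker histone genes, 5 passed 10 CPM in a line, the largest share of any class. HIST1H1C (chr6:26055787-26056428, minus strand), a gene for a linker histone, was at 56.4 CPM in C1-sgEED, 38.9 CPM in C1-sgKMT2D and 42.4 CPM in C1-sgControl. HIST1H1D (chr6:26234268-26234933, minus strand) was at 56.2, 43.9 and 40.0 CPM in the same order. HIST1H1A was at 28.1 CPM in C1-sgEED, 22.1 CPM in C1-sgKMT2D and 16.3 CPM in C1-sgControl. All 3 were highest in C1-sgEED, and in each the C1-sgEED interval lay above that of C1-sgControl. HIST1H1E was at 18.6, 17.3 and 14.1 CPM, in the order C1-sgEED, C1-sgKMT2D and C1-sgControl. HIST1H1B was at 17.0 CPM in C1-sgEED, 8.02 CPM in C1-sgKMT2D and 9.07 CPM in C1-sgControl. In HIST1H1B only C1-sgEED stood apart, and in HIST1H1E neighbouring intervals overlapped. The HIST1H1E ratio of C1-sgEED to C1-sgControl was 1.32 (1.06 to 1.65), and the intervals of its other ratios held 1.

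Of the H2A genes, HIST2H2AC (chr1:149886975-149887364, plus strand) was at 16.9 CPM in C1-sgEED, 14.1 CPM in C1-sgKMT2D and 11.5 CPM in C1-sgControl. HIST3H2A (chr1:228456979-228457873, minus strand) was at 12.6, 13.9 and 10.6 CPM, and HIST1H2AC (chr6:26124145-26139116, plus strand) at 13.6, 10.2 and 11.9 CPM. The intervals of all 3 lines overlap for HIST3H2A and HIST1H2AC, while for HIST2H2AC the C1-sgEED interval lies above that of C1-sgControl. As ratios, HIST3H2A was at 1.31 (1.03 to 1.68) in C1-sgKMT2D over C1-sgControl. HIST1H2AC was at 0.751 (0.590 to 0.954) in C1-sgKMT2D over C1-sgEED. The intervals of the other ratios of HIST3H2A and HIST1H2AC held 1. HIST1H2BH (chr6:26251651-26253710, plus strand), a gene for histone H2B, was the exception among the members: it was at 12.4 CPM in C1-sgEED (10.3 to 14.7), 51.4 CPM in C1-sgKMT2D (47.7 to 55.3) and 5.54 CPM in C1-sgControl (4.17 to 7.21). Here C1-sgKMT2D was far above both other lines, and C1-sgEED lay above C1-sgControl.

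**Figure D1:**
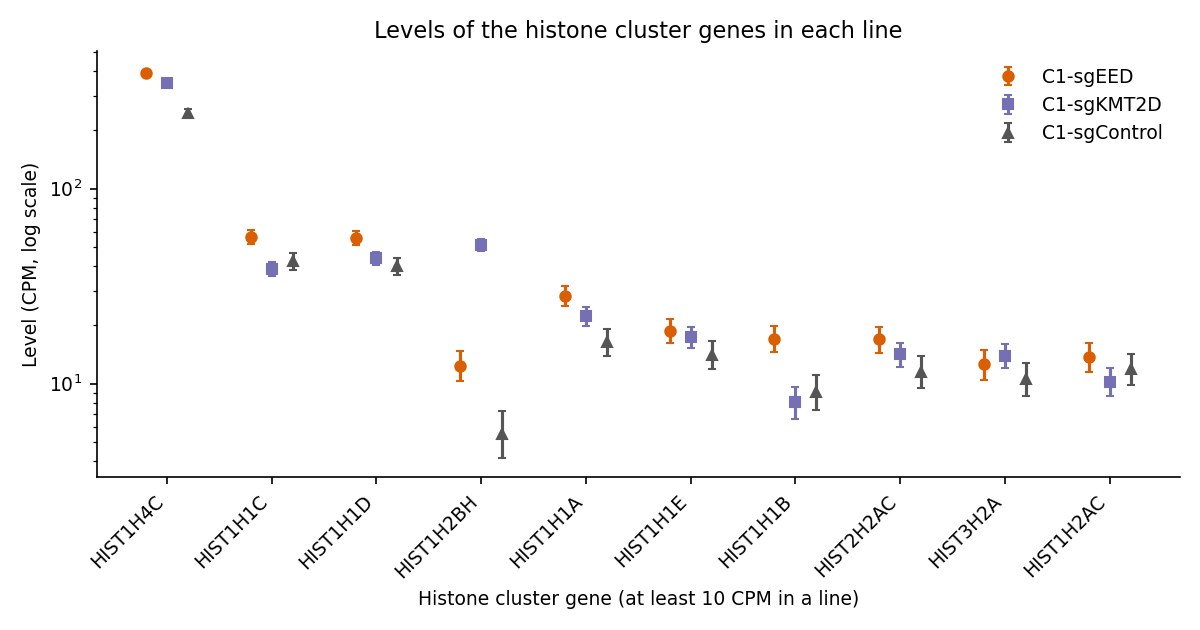
Level of the 10 histone cluster genes at 10 CPM or more in a line (CPM, log axis), as points for C1-sgEED, C1-sgKMT2D and C1-sgControl from left to right with exact 95% Poisson intervals. HIST1H4C lies above 200 CPM in all lines, and HIST1H2BH spreads widest, at 12.4, 51.4 and 5.54 CPM.

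Summed over the 71 members, the level was 709 CPM in C1-sgEED, 637 CPM in C1-sgKMT2D and 458 CPM in C1-sgControl. The C1-sgEED sum was 1.55 times (1.49 to 1.61) and the C1-sgKMT2D sum 1.39 times (1.34 to 1.44) that of C1-sgControl. The C1-sgKMT2D sum was 0.899 times (0.872 to 0.928) that of C1-sgEED. Without HIST1H4C and HIST1H2BH the sum was 303 CPM in C1-sgEED, 237 CPM in C1-sgKMT2D and 207 CPM in C1-sgControl, and the ratio of C1-sgKMT2D to C1-sgControl was 1.14 (1.08 to 1.21). The mitochondrial filter removed 5.82% of C1-sgEED, 5.13% of C1-sgKMT2D and 25.5% of C1-sgControl barcodes. With no filter the ratios to control were 1.63 for C1-sgEED and 1.47 for C1-sgKMT2D.

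By class, the linker histones came to 176 CPM in C1-sgEED, 130 CPM in C1-sgKMT2D and 122 CPM in C1-sgControl, and the H2A genes to 68.6, 56.7 and 47.1 CPM. The H2B genes came to 45.3 CPM in C1-sgEED, 78.7 CPM in C1-sgKMT2D and 32.4 CPM in C1-sgControl, but without HIST1H2BH to 33.0, 27.3 and 26.9 CPM. The high H2B sum of C1-sgKMT2D thus came from 1 gene. The H3 genes came to 16.8 CPM in C1-sgEED, 16.2 CPM in C1-sgKMT2D and 7.96 CPM in C1-sgControl, so both knockout lines held about the same, at 2.11 (1.61 to 2.79) and 2.03 (1.57 to 2.66) times control. The 14 H4 genes other than HIST1H4C came to 8.48, 6.38 and 3.22 CPM in the same order.

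At a bound of 1.5-fold, 4 of the 10 members at 10 CPM or more in either line were higher in C1-sgEED than in C1-sgControl and 0 were lower. Over the 7894 genes measured the same way, 11.6% were higher and 8.87% lower. The 4 were HIST1H2BH (2.23, 1.62 to 3.13), HIST1H1B (1.87, 1.44 to 2.44), HIST1H1A (1.72, 1.41 to 2.10) and HIST1H4C. The median log2 ratio, with 1 CPM added to each value, was 0.50 over the 10 members and 0.09 over all measured genes. In C1-sgKMT2D against C1-sgControl 1 of 9 members was higher and 0 were lower, where 7.72% and 14.5% of 7680 genes were. The 1 was HIST1H2BH, at a ratio of 9.27 (7.04 to 12.4). The medians were 0.28 for the members and -0.02 for all genes. C1-sgControl was under 10 CPM for HIST1H2BH and HIST1H1B. HIST1H2BH entered both comparisons, and HIST1H1B the one with C1-sgEED, only through the knockout, in which they were higher. HIST1H1B, at 8.02 CPM in C1-sgKMT2D, was not measured in the other comparison. The counts and medians that hold these 2 genes are descriptions.

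Between the knockouts, 2 of 10 members were at least 1.5-fold apart in either direction, against 17.4% of 7738 genes, of which 265 were higher and 1080 lower in C1-sgKMT2D than in C1-sgEED. HIST1H2BH was 4.15 times as high (3.43 to 5.05) and HIST1H1B 0.473 times (0.370 to 0.603), the second counted only through C1-sgEED. HIST1H1C was 0.690 times (0.613 to 0.778), just inside the bound. The median log2 ratio was -0.29 over the members and -0.10 over all genes.

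**Figure D2:**
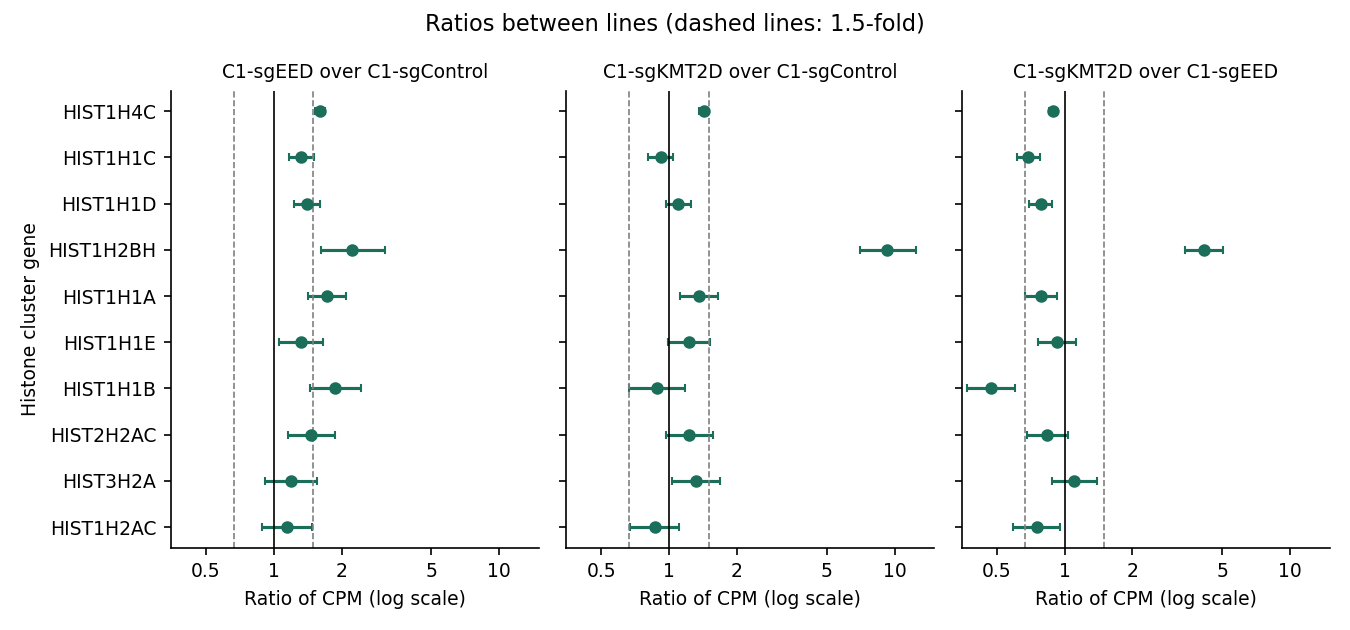
Ratio of CPM between lines (log axis) for the same 10 genes, 1 panel for each pair of lines, with exact conditional 95% intervals; dashed lines mark 1.5-fold. HIST1H2BH lies apart in both panels with C1-sgKMT2D on top, at 9.27 and 4.15.

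Most members were under 10 CPM, and the same bound was applied to them at low counts. Of 20 such members with at least 20 UMIs in both lines together, in C1-sgEED over C1-sgControl 14 stood at least 1.5-fold higher and 3 lower (26.8% and 11.8% of 4908 genes of that level). In C1-sgKMT2D against C1-sgControl 12 of 24 were higher and 3 lower (17.4% and 22.6% of 5013 genes). In C1-sgKMT2D against C1-sgEED 1 of 25 was higher and 6 lower (8.45% and 29.9% of 5293 genes), both below the share of all genes. Chosen after their values were seen, HIST1H2AG was at 8.09, 5.37 and 3.12 CPM and HIST1H4E at 2.83, 1.43 and 0.504 CPM in C1-sgEED, C1-sgKMT2D and C1-sgControl. The low H2B genes were split: against C1-sgControl 4 of 8 were higher and 3 lower in C1-sgEED, and 4 of 9 were higher and 3 lower in C1-sgKMT2D. No low member of another class was past the bound on the lower side in either comparison with C1-sgControl. Among the lower H2B genes, HIST2H2BE was at 2.24 CPM in C1-sgEED, 2.65 CPM in C1-sgKMT2D and 4.94 CPM in C1-sgControl, and HIST1H2BG at 4.78, 4.44 and 7.25 CPM. HIST1H2BD was at 1.58 CPM in C1-sgKMT2D and 3.02 CPM in C1-sgControl.

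To set the histone levels against cycling, each cell was thinned to 2000 UMIs and its UMIs of a G1/S list (38 genes found, such as PCNA and MCM2) and a G2/M list (51 genes, such as TOP2A and MKI67) were counted. Neither list holds a histone cluster gene, and thinning served only to place cells in ranges: the levels by range use all UMIs of those cells. Cells above 9 list UMIs, the 75th percentile of C1-sgControl, form the cycling range, and cells at 4 or fewer, its median, form the low range. The cycling range held 1078 of 2171 C1-sgEED cells (49.7%), 683 of 2234 C1-sgKMT2D cells (30.6%) and 407 of 1636 C1-sgControl cells (24.9%). The low range held 25.6%, 38.1% and 56.9% of them. Of the G1/S list itself, 18 of 32 measured genes stood at least 1.5-fold above C1-sgControl in C1-sgEED, and 8 of 30 did in C1-sgKMT2D. For the G2/M list these counts were 38 of 50 and 31 of 50, with 0 lower in either list. Over all measured genes 11.6% were higher and 8.87% lower in C1-sgEED, and 7.72% and 14.5% in C1-sgKMT2D. Of the genes counted as higher, 5 of the 18, 2 of the 8 and 3 in each G2/M count reached 10 CPM only in the knockout. The counts are therefore descriptions.

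Most of the captured histone signal lay in the cycling cells of every line. The 71 members summed to 1173 CPM in the cycling range and 180 CPM in the low range of C1-sgEED, a ratio of 6.53 (5.93 to 7.20). In C1-sgKMT2D they summed to 1285 CPM and 241 CPM, a ratio of 5.34 (5.01 to 5.69). In C1-sgControl they summed to 1114 CPM and 166 CPM, a ratio of 6.70 (6.21 to 7.24). By class, cycling over low was 6.42, 6.58 and 7.07 for H1 and 7.05, 5.21 and 7.66 for H3 in C1-sgEED, C1-sgKMT2D and C1-sgControl. It was less for H2A, at 2.65, 2.48 and 2.28, and for H2B without HIST1H2BH, at 2.67, 2.00 and 1.28.

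The members fall along a range from cycling-bound to indifferent. HIST1H1B had 168, 102 and 79 UMIs in the cycling cells of C1-sgEED, C1-sgKMT2D and C1-sgControl and 1, 4 and 2 UMIs in their low cells, a ratio of CPM of 80.1 (14.2 to 3181), 23.9 (9.06 to 89.5) and 73.0 (19.6 to 614). HIST1H1A had ratios of 65.3 (17.9 to 542) in C1-sgEED, 21.6 (12.2 to 42.3) in C1-sgKMT2D and 53.6 (22.5 to 168) in C1-sgControl. HIST1H1D was 10.8 times (7.06 to 17.4), 6.87 times (5.26 to 9.11) and 16.2 times (11.5 to 23.4) as high in cycling as in low cells of C1-sgEED, C1-sgKMT2D and C1-sgControl. HIST1H4C was at 10.0, 7.93 and 12.0, below HIST1H1A and HIST1H1B in every line, and its intervals overlapped those of HIST1H1D in all 3. HIST1H1E, at 5.08, 5.03 and 4.38, HIST2H2AC, at 5.42, 6.57 and 7.21, and HIST1H1C, at 2.70, 3.98 and 2.87, were in between.

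HIST1H2AC and HIST3H2A, which carry annotated sequence past the stem-loop, followed cycling least. HIST1H2AC had ratios of 1.43 (0.929 to 2.26) in C1-sgEED, 1.54 (1.05 to 2.29) in C1-sgKMT2D and 0.718 (0.438 to 1.14) in C1-sgControl. HIST3H2A was lower in cycling than in low cells in all 3 lines, at 0.727, 0.661 and 0.757, and the interval excluded 1 only in C1-sgKMT2D (0.451 to 0.962). HIST1H2BH, of the same kind by its 3′ end, was at 19.0 CPM in cycling and 3.62 CPM in low C1-sgEED cells, at 69.7 and 38.0 CPM in C1-sgKMT2D, and at 9.98 and 3.08 CPM in C1-sgControl. Its ratio was smallest in C1-sgKMT2D, at 1.83 (1.53 to 2.21), where it was highest.

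**Figure D3:**
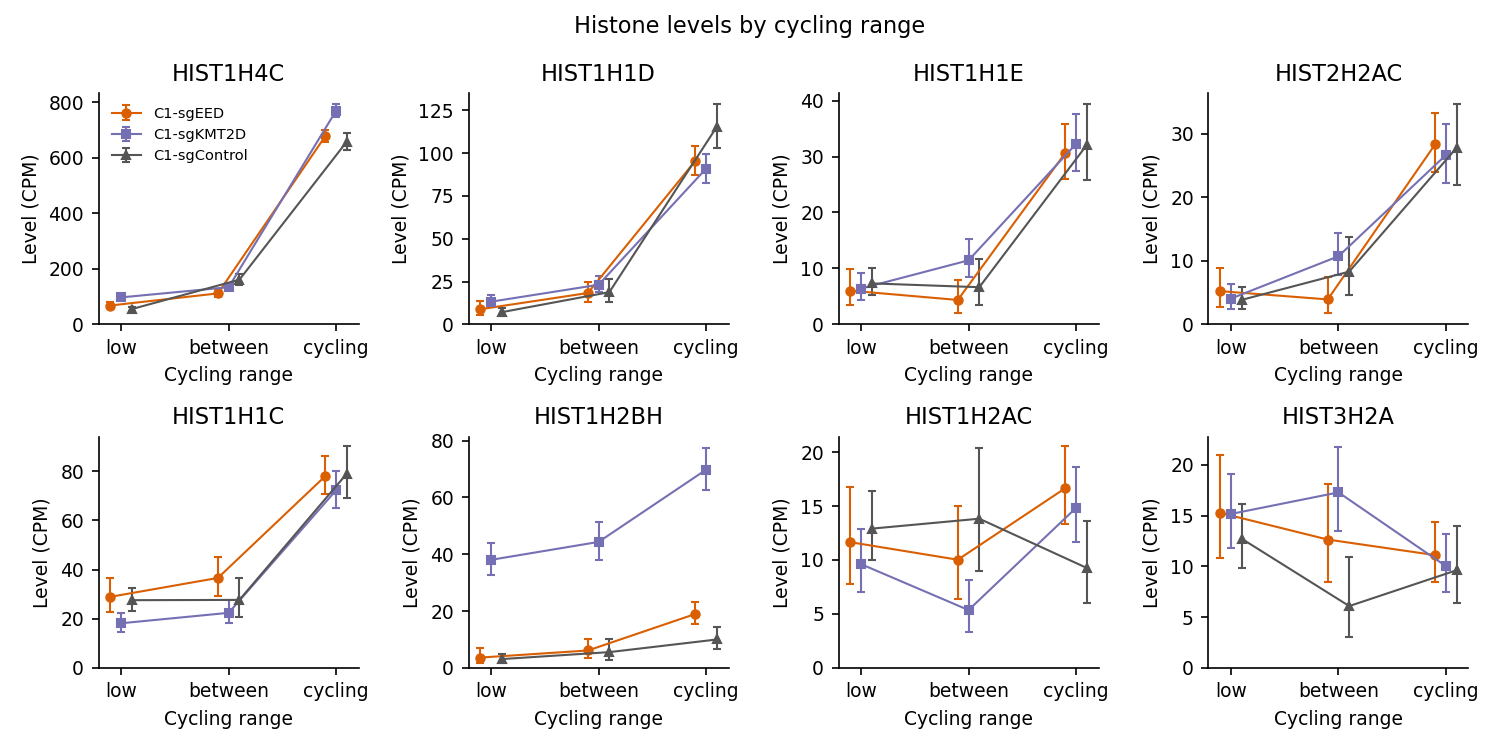
Level (CPM, each axis from 0) of 8 histone cluster genes in the low, between and cycling ranges of each line, with exact 95% Poisson intervals. HIST1H4C and HIST1H1D stand several-fold higher in cycling cells of every line, HIST3H2A does not, and HIST1H2BH in C1-sgKMT2D is at 38.0 CPM already in low cells.

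Compared within the cycling range, the lines lay closer together than over all cells. The 71 members summed to 1.05 times control (1.01 to 1.10) in C1-sgEED and 1.15 times (1.10 to 1.20) in C1-sgKMT2D. When each line was reweighted to the range shares of C1-sgControl, the C1-sgEED sum was 1.03 times and the C1-sgKMT2D sum 1.20 times that of control, against 1.55 and 1.39 times over all cells of at least 2000 UMIs. HIST1H4C was reweighted to 1.01 for C1-sgEED and 1.20 for C1-sgKMT2D, and the linker histones to 0.967 and 0.907. In the low range, HIST1H4C was 1.76 times as high in C1-sgKMT2D as in C1-sgControl (1.52 to 2.05), and HIST1H1C 0.659 times (0.498 to 0.868). In cycling cells, HIST1H1B was 0.635 times as high in C1-sgKMT2D as in C1-sgEED (0.492 to 0.817). This closeness depends on where the cycling range begins: above the 90th percentile of C1-sgControl, with 491, 319 and 153 cells, the sum was 1.59 times control in C1-sgEED and 1.86 times in C1-sgKMT2D.

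Finer bins of the cycling lists, chosen after the values were seen, show where the lines part. From 15 to 19 list UMIs, the sum was 1410 CPM in C1-sgEED, 1597 CPM in C1-sgKMT2D and 1643 CPM in C1-sgControl. In the cells with 30 or more, which number 245, 200 and 68, it was 855 CPM in C1-sgEED, 1245 CPM in C1-sgKMT2D and 382 CPM in C1-sgControl. The sum in that bin was 2.24 times control (1.91 to 2.63) in C1-sgEED and 3.26 times (2.80 to 3.82) in C1-sgKMT2D, while from 10 to 14 list UMIs it was 0.738 times and 0.793 times. From 20 to 29 it was 1.41 and 1.49 times control, and from 5 to 9 it was 0.838 and 1.07 times. At 0 to 4 it was 1.08 times (0.961 to 1.21) in C1-sgEED and 1.45 times (1.32 to 1.58) in C1-sgKMT2D. In all 3 lines the level in the richest cells was below that of a bin before it, and by most in C1-sgControl. The share of list UMIs from the G1/S list in these richest cells was 9.75%, 7.86% and 8.08%, against 31.0%, 30.6% and 34.6% from 10 to 14 list UMIs. Cells that share a line are not replicates, so no test is attached.

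Sorting the cycling cells instead by the G1/S share of their list UMIs, into 4 groups of about equal size, gave HIST1H4C levels of 374, 626, 840 and 859 CPM from the most G2/M to the most G1/S group of C1-sgEED cells. In C1-sgKMT2D they were 683, 757, 903 and 754 CPM, and in C1-sgControl 414, 384, 939 and 869 CPM. HIST1H4C was thus high toward the G1/S side in C1-sgEED and C1-sgControl, while C1-sgKMT2D was flatter, with its group nearest G2/M well above those of the other lines. These groups were chosen after the values were seen. Only 89 of 1078 C1-sgEED, 69 of 683 C1-sgKMT2D and 29 of 407 C1-sgControl cycling cells held more G1/S than G2/M UMIs. Even in the most G1/S group, most cells therefore did not. HIST1H2BH in C1-sgKMT2D ran the other way, at 86.9, 87.2, 63.2 and 34.3 CPM. In C1-sgEED it was at 16.6, 10.1, 22.5 and 26.5 CPM.

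**Figure D4:**
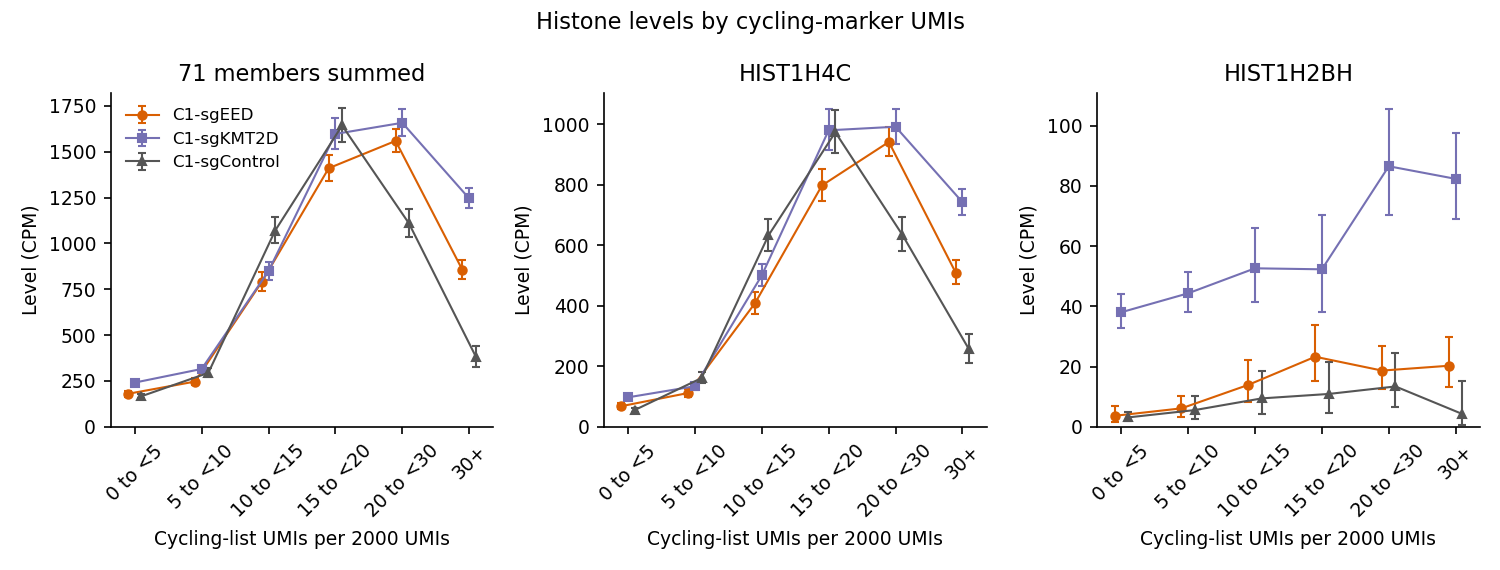
Level (CPM) of the 71 members summed, HIST1H4C and HIST1H2BH by the number of cycling-list UMIs per 2000 UMIs, for C1-sgEED, C1-sgKMT2D and C1-sgControl, with exact 95% Poisson intervals. The summed level peaks between 15 and 29 list UMIs and is 855, 1245 and 382 CPM at 30 or more, while HIST1H2BH is higher in C1-sgKMT2D in every bin.

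HIST1H2BH was followed further because it parts the lines most. A UMI of it was found in 4.75% of C1-sgEED, 21.5% of C1-sgKMT2D and 3.08% of C1-sgControl cells, and after thinning in 1.98%, 8.15% and 0.917%. The most in 1 cell was 3 UMIs in C1-sgEED, 7 in C1-sgKMT2D and 2 in C1-sgControl. The 139 C1-sgKMT2D cells with 2 or more of its UMIs, 5.92% of the line, held 49.1% of them. The ratio of C1-sgKMT2D to C1-sgControl was 12.3 (7.39 to 22.0) in low cells and 6.99 (4.75 to 10.7) in cycling cells, and 8.76 when reweighted to the ranges of C1-sgControl. Free RNA of the shared pool could place UMIs of it in any line, and its part was not tested.

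Genes around HIST1H2BH had smaller ratios. Of 54 genes within 500 kb, 28 had 2 CPM or more in a line, 17 of them histone cluster genes. Of the 28, 6 were at least 1.5-fold higher in C1-sgKMT2D than in C1-sgControl and 3 were lower, where 11.1% and 17.6% of 12109 genes of that level were. The 28 ratios ran from 0.494 to 4.27, with a median of 1.10, and the highest was that of HIST1H3C (1.90 to 11.3). HIST1H1D, 18.1 kb away, was at a ratio of 1.10 (0.966 to 1.25). The nearest member, HIST1H3F, was at 2.01 CPM in C1-sgKMT2D and 0.705 CPM in C1-sgControl, a ratio of 2.84 (1.21 to 7.72). The other way, HIST1H3G was at a ratio of 1.32 (0.744 to 2.39).

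**Figure D5:**
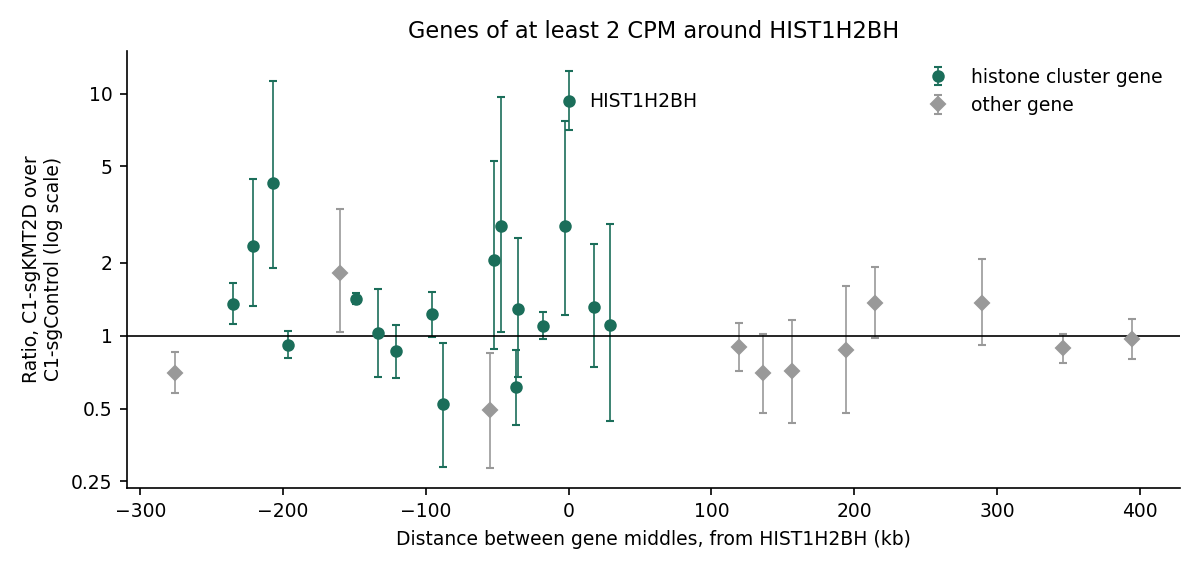
Ratio of CPM of C1-sgKMT2D over C1-sgControl (log axis) for genes of at least 2 CPM in a line within 500 kb of HIST1H2BH, by distance between gene middles, with exact conditional 95% intervals. HIST1H2BH, at 9.27, lies above every other gene, whose median is 1.10.

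The knockouts hold cells with more mesenchymal and fewer epithelial marker UMIs, and the histone levels were set against that axis too. Cells whose mesenchymal share of marker UMIs exceeded 0.404, the 99th percentile of C1-sgControl, form the mesenchymal range, with 998 C1-sgEED, 995 C1-sgKMT2D and 17 C1-sgControl cells. In C1-sgEED the 71 members summed to 957 CPM in mesenchymal-range and 550 CPM in epithelial-range cells, a ratio of 1.74 (1.66 to 1.82). The cycling range held 60.7% of those mesenchymal-range and 40.2% of those epithelial-range cells. In C1-sgKMT2D the sums were 729 and 593 CPM, a ratio of 1.23 (1.18 to 1.28), with 27.3% and 33.2% of cells cycling. Among cycling cells alone the ratio was 1.32 in both lines (1.26 to 1.39 in each).

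HIST1H2BH was higher in mesenchymal-range cells of both knockouts. In C1-sgEED it was at 20.7 CPM in mesenchymal-range and 6.50 CPM in epithelial-range cells, a ratio of 3.19 (2.15 to 4.79), and among cycling cells 2.89 (1.81 to 4.74). Among low C1-sgEED cells the ratio was 0.968 (0.0981 to 5.08). In C1-sgKMT2D HIST1H2BH was at 62.6 and 45.2 CPM, a ratio of 1.39 (1.19 to 1.61), so it was high on both sides. That ratio was not particular to HIST1H2BH. In C1-sgKMT2D all members without HIST1H4C together stood at 1.45 (1.36 to 1.54), and HIST2H2AC at 1.71 (1.28 to 2.29). HIST1H1B in C1-sgEED was at 28.4 and 9.50 CPM, a ratio of 2.99 (2.16 to 4.19), and among cycling cells 2.00 (1.44 to 2.82). HIST1H4C was 1.86 times as high (1.75 to 1.99) on the mesenchymal side in C1-sgEED and 1.07 times (1.01 to 1.14) in C1-sgKMT2D. HIST1H2AC showed no such difference in either line, at 0.951 (0.663 to 1.35) and 0.940 (0.649 to 1.35).

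Histone variants are coded outside the clusters, mostly by messages with poly(A) tails, and serve as a counterpart. Against C1-sgControl, 6 of 11 measured variant genes in C1-sgEED and 3 of 10 in C1-sgKMT2D stood at least 1.5-fold higher, and 0 lower, beside the 11.6% and 7.72% of all measured genes that were higher. H2AFX, whose product marks DNA breaks, was at 91.2 CPM in C1-sgEED, 53.8 CPM in C1-sgKMT2D and 45.1 CPM in C1-sgControl. CENPA, the centromeric H3 variant, was at 59.2, 51.2 and 27.1 CPM. H2AFY2, a macroH2A gene that was counted only through C1-sgEED, was at 19.8, 9.03 and 5.14 CPM, and the linker H1F0 at 54.6, 31.7 and 39.5 CPM. H3F3A, a gene for H3.3, differed little, at 1.13 times control (1.10 to 1.16) in C1-sgEED and 1.12 times (1.09 to 1.14) in C1-sgKMT2D.

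The list of histone gene transcription and 3′ processing factors had 0 of 9 measured genes past 1.5-fold in C1-sgEED against C1-sgControl, and 2 of 10 higher in C1-sgKMT2D, where 11.6% and 7.72% of all measured genes were higher. Those 2 were LSM11, a part of the U7 particle, and ERI1, a nuclease that acts on the histone message end, at ratios of 1.71 (1.26 to 2.34) and 1.52 (1.15 to 2.02), and both reached 10 CPM in C1-sgKMT2D but not in C1-sgControl. SLBP, which binds the stem-loop, was at 74.6 CPM in C1-sgEED, 72.4 CPM in C1-sgKMT2D and 59.0 CPM in C1-sgControl. Of 17 histone chaperone genes, 4 were higher in C1-sgEED than in C1-sgControl and 0 lower, and in C1-sgKMT2D 2 were higher and 1 lower. Over all measured genes 11.6% were higher and 8.87% lower in C1-sgEED, and 7.72% and 14.5% in C1-sgKMT2D, so the C1-sgKMT2D counts lie near or under these shares. NASP, which carries H3 and H4 and also linker histones, was at 225, 205 and 114 CPM in C1-sgEED, C1-sgKMT2D and C1-sgControl. ASF1B, a chaperone of H3 and H4, was at 25.6 CPM in C1-sgEED and 14.4 CPM in C1-sgControl.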

How the data were processed

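One gene expression and 1 hashtag library were made from the pool with a droplet 3′ kit, per the labels. The authors' deposited matrix holds UMI counts per gene and hashtag, made with Cell Ranger 3.0.2 on GRCh38, per the submitters' processing notes; the release of the gene models behind it was not stated in the labels or headers. Cells with at least 500 genes and at most 20% mitochondrial UMIs were kept (9193 of 10336). A 2-component mixture per hashtag gave each cell its line; 827 cells positive for several hashtags and 26 with none were left out, and doublets within a line were not sought. Counts were summed per line and scaled to CPM. Intervals are exact Poisson, Clopper-Pearson or conditional binomial (95%), and PCR and free RNA are outside them. With 1 sample per line there is no test. A gene counts as measured at 10 CPM in either line. On simulated counts with known ratios, 95.1% to 95.3% of intervals held the true value over 7680 to 7894 genes. Those counts were drawn from the same Poisson model as the intervals, so this checks the calculation and not the spread between cells. Members at 10 CPM or more in a line are named with their values; other names were chosen after values were seen. The members and lists were chosen with earlier results of these data known. Coordinates are GENCODE v29 (GRCh38), matched by gene ID. Tools were Python 3.11.15, NumPy 2.4.6, SciPy 1.17.1 and scikit-learn 1.9.0. Processing alternatives are in the closing section.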

Additional observations from a re-analysis of the deposited data

How the results depend on the processing

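No paired analysis was possible because each line is 1 sample in 1 pool, and no replicate could be left out. Of 240 values of single genes under alternatives, 224 stayed within the counting interval and 236 kept their direction. The exceptions were HIST1H1C in C1-sgKMT2D over C1-sgControl under the strict filter and under thinning, and HIST3H2A and HIST1H2AC in C1-sgEED over C1-sgControl under thinning, all near a ratio of 1. HIST1H2BH in C1-sgKMT2D over C1-sgControl had a log2 ratio between 2.94 and 3.19 throughout. The causes of the shifts below were not tested.

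The ratio of the summed level of C1-sgEED to C1-sgControl was 1.63 with no filter, 1.62 as a mean over cells, 1.62 with thinned cells, 1.48 without HIST1H4C and 1.46 also without HIST1H2BH. For C1-sgKMT2D to C1-sgControl it was 1.47 with no filter, 1.46 without mitochondrial and ribosomal protein genes in the total, 1.47 with thinned cells and 1.14 without HIST1H4C and HIST1H2BH. For C1-sgKMT2D to C1-sgEED it was 0.964 without mitochondrial and ribosomal protein genes and 0.782 without HIST1H4C and HIST1H2BH. The sums without single members were chosen after the data were seen.

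Counts of members were small and moved with the settings; shares in brackets are of all genes measured under the same setting. In C1-sgEED over C1-sgControl 7 of 10 were higher as a mean over cells (12.6%), 15 of 27 were higher and 3 lower at 2 CPM (16.6% and 9.69%), 2 of 4 were higher at 20 CPM (10.6%), and 1 of 13 was lower without mitochondrial and ribosomal protein genes (9.78%). In C1-sgKMT2D over C1-sgControl 2 of 9 were higher with no filter (7.94%), 3 of 9 higher and 1 lower with thinned cells (9.51% and 17.6%), 6 of 24 higher and 3 lower at 2 CPM (10.3% and 17.4%), and 1 of 11 lower without mitochondrial and ribosomal protein genes (13.3%). In C1-sgKMT2D over C1-sgEED 2 of 27 were higher and 7 lower at 2 CPM (4.59% and 19.3%), 0 of 5 lower at 20 CPM (12.1%), and 2 of 12 lower without mitochondrial and ribosomal protein genes (11.6%).

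With the cycling range above the 90th percentile, cycling over low was 5.73 in C1-sgKMT2D and 4.45 in C1-sgControl, and within the range the ratio was 1.59 for C1-sgEED to C1-sgControl, 1.86 for C1-sgKMT2D to C1-sgControl and 1.17 for C1-sgKMT2D to C1-sgEED. With cells thinned to 5000 UMIs, cycling over low was 8.72 in C1-sgEED, 6.95 in C1-sgKMT2D and 7.77 in C1-sgControl. With the mesenchymal bound at 0.5, the ratio of mesenchymal to epithelial range in C1-sgKMT2D was 1.11. Depth limits the members under 2 CPM, 36 of which had under 20 UMIs in all 3 lines together.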

Other observations

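The pool also holds 1934 cells of hashtag 2, which the labels assign to no line, with 11297540 UMIs. Their values are given with no comparison. The 71 members summed to 439 CPM (427 to 451) and HIST1H4C was at 259 CPM. HIST1H1C was at 42.7 CPM, HIST1H1D at 18.8 CPM, HIST1H2BH at 4.69 CPM and HIST3H2A at 3.81 CPM. A UMI of HIST1H4C was found in 44.2% of these cells and one of HIST1H2BH in 2.59%. The cycling range held 30.5% of the 1856 cells of at least 2000 UMIs.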
